A study of Arabidopsis thaliana with 6 samples.

Results

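Wound and jasmonate defence outputs are described here through 6 genes of Arabidopsis thaliana: NATA1 (AT2G39030), TI1 (AT2G43510), CORI3 (AT4G23600), NIT2 (AT3G44300), VSP1 (AT5G24780) and VSP2 (AT5G24770). They were chosen by gene identifier, with their values in these data known, and were looked up among the 1336 genes of the authors' deposited table of genes higher or lower in the sams3 mutant. Of the 6 genes, 4 were listed, all as higher in sams3, 0 were listed as lower, and VSP1 and VSP2 were in neither list. For scale, the higher genes make up 3.11% and the lower genes 1.57% of the 27562 protein-coding genes of the reference table, which stands in for the unknown set that the authors tested. Nothing is read from the count of 4 against these shares, since the genes were chosen from the same comparison.

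The study sequenced 2 RNA libraries of the sams3 mutant and 2 of its wild-type control L119, itself a transgenic line. The mutant is named for S-adenosylmethionine synthetase 3, an enzyme that makes the methyl donor S-adenosylmethionine. Per the labels, the sams3 samples also have the L119 background. All seedlings were taken at 15 days from agar plates with 20 g/L sucrose, kept at 22 °C with light for 23 h a day. The sources used here do not give the transgene of L119, the sams3 allele or how many seedlings were pooled. Bisulfite libraries of both genotypes were not analysed here.

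Each value is a log2 fold change, sams3 over L119, from the authors' comparison, whose lists keep genes past a 2-fold change and a p-value threshold of 0.0001. Values of single libraries, standard errors and depth were not in the files, so the spread between libraries cannot be shown gene by gene, and no source used here says how it entered the authors' p-values. The labels do not say that the libraries came from separate cultures, so any such spread may be technical. A gene outside the lists has no value here and is called not listed, which does not mean unchanged. The lists carry no levels, so the seedling label was not checked against tissue markers, and a rise in whole seedlings does not tell more RNA per cell from more cells of a type that holds the RNA.

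Jasmonate is a lipid-derived hormone that plants make on wounding and insect attack. Its isoleucine conjugate brings JAZ repressor proteins to the receptor COI1, the repressors are degraded, and MYC transcription factors are freed to switch on genes for defence proteins and enzymes. A branch that also needs ethylene runs through ERF factors to plant defensins. The 6 genes lie at the output end: NATA1 acetylates ornithine, CORI3 is a cystine lyase related to tyrosine aminotransferases and induced by the bacterial jasmonate mimic coronatine, TI1 encodes a small trypsin inhibitor, NIT2 is a nitrilase that can turn indole-3-acetonitrile into auxin, and VSP1 and VSP2 encode vegetative storage proteins, which act as acid phosphatases.

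The 4 listed genes had rises of 6.14-fold to 23.2-fold. NATA1, which diverts ornithine into acetylornithine, had the largest, at log2 4.53 in the authors' deposited table, a 23.2-fold higher level in sams3 than in L119. For TI1, an inhibitor of serine proteases, the authors' deposited table gives 4.14, or 17.6-fold. CORI3 stood at 3.01 in the authors' deposited table, or 8.08-fold. The smallest of these rises was that of NIT2, 2.62 or 6.14-fold in the authors' deposited table.

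In the order of these log2 changes NATA1 and TI1 were 0.39 apart, TI1 and CORI3 1.13, and CORI3 and NIT2 0.40. Without standard errors, no neighbours in this order can be called different. All 4 had a p-value listed as 0 in the authors' deposited table, which puts them among only 7 genes with that entry, 0.783% of the 894 higher genes, and 0 lower genes had it. These p-values and folds led to the choice of the genes, so they describe the genes and are no test of them. The other genes with p listed as 0 were AT4G22470 at 3.99, PR4 at 2.80 and EARLI1 at 2.59 in the authors' deposited table. PR4 belongs to the jasmonate and ethylene branch, so the entry is not particular to the 4 outputs. KTI1, another trypsin inhibitor gene, had the smallest p-value above 0 in the authors' deposited table, 1.75e-294.

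Among the 894 higher genes the ranks by log2 fold change were 65 for NATA1, 70 for TI1, 132 for CORI3 and 172 for NIT2. NATA1 and TI1 were thus within the top 7.83% of rises and NIT2 within the top 19.2%. The median log2 of the 4 genes was 3.58, against 1.62 for all higher genes, whose upper quartile was 2.30. No gene ranked above NATA1 had a p-value listed as 0. With higher genes past a Bonferroni threshold only, the ranks were 46 for NATA1, 50 for TI1, 100 for CORI3 and 136 for NIT2.

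**Figure D1:**
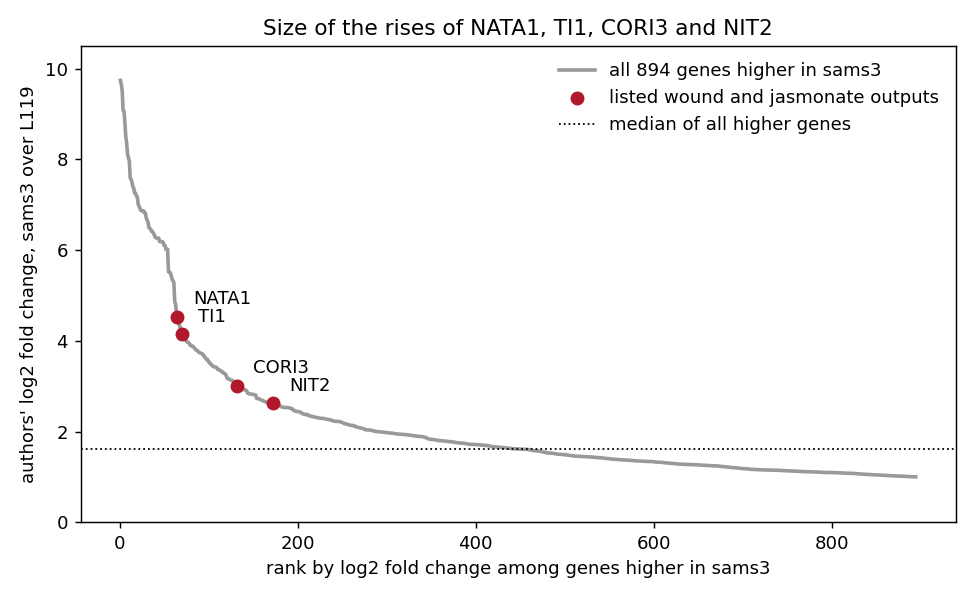
Log2 fold change, sams3 over L119, in the authors' deposited table (vertical axis) against its rank among the 894 genes higher in sams3 (horizontal axis, grey line), with the 4 listed outputs as red points and the median of all higher genes, 1.62, as a dotted line. NATA1 and TI1 lie at ranks 65 and 70, and CORI3 and NIT2 at 132 and 172, all above the median.

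VSP1 and VSP2, long used as markers of the wound and MYC branch, were in neither list. They lie next to each other but for a pseudogene (AT5G24775), which was not listed either. No value can be given for them, and whether they missed the fold threshold, missed the p threshold or were not tested was not determined. Of the 10 loci around VSP2, 5 on each side, the ABC1 family gene AT5G24810 was listed, at 1.02 in the authors' deposited table. Both relatives of the acid phosphatase type in the list of relatives, AT4G29260 and AT4G29270, were not listed.

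The rises of NIT2 and TI1 were shared by relatives beside them on the chromosome, whereas NATA1 and CORI3 had no listed gene among the 5 loci on each side. NIT2 is followed by NIT1 and NIT3, nitrilase genes of the same subfamily. The authors' deposited table has NIT3 at 1.64 (3.11-fold, p = 2.44e-103) and NIT1 at 1.11 (2.16-fold, p = 1.41e-72), both below the 2.62 of NIT2. NIT4, the nitrilase gene at another locus that acts on beta-cyanoalanine, formed in cyanide detoxification, was not listed. NIT1, NIT2 and NIT3 are known to be similar in sequence, which was not compared here, and the sources used here do not say how reads that match several of them were handled, so their single values are uncertain. A further locus in this stretch, the F-box gene AT3G44326, was at 1.68 in the authors' deposited table.

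TI1 is followed by TI2 and by AT2G43530 and AT2G43535, which the deposited descriptions call scorpion toxin-like knottin proteins, small folds held by disulfide bonds. AT2G43530 stood at 2.03 (4.09-fold, p = 2.75e-97) in the authors' deposited table and AT2G43535 at 1.12 (2.17-fold, p = 1.95e-29). TI2, the locus directly beside TI1, was not listed, and neither was AT2G43550. The rise of TI1 was therefore the largest of the listed genes in this cluster, by 2 log2 units or more over both neighbours.

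NATA1 lies beside its relative NATA2 (AT2G39020), which was not listed. The 23.2-fold rise of NATA1 thus cannot be compared with NATA2, which has no value here. Their sequences were not compared, and the sources used here do not say how reads that match both were handled. CORI3 likewise lies beside the related AT4G23590, which was not listed. None of the other aminotransferase relatives of CORI3 was listed: SUR1, which acts in glucosinolate synthesis, TAT7, a tyrosine aminotransferase, and AT4G28410, AT4G28420 and AT5G36160. In all, 4 of the 16 relatives were listed, all higher. They are 25.0% of the relatives, beside 3.11% of all protein-coding genes, and 66.9% of all listed genes were higher. Their median log2 was 1.38, below the 1.62 of all higher genes. The list of relatives was chosen with earlier results of these data known, so its count is a description.

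Listed neighbours were common in the whole list. Of the 893 higher genes placed in the reference order, 37.4% had another higher gene among the 5 loci on each side, and 3.92% had 3 or more, the number around NIT2. A directly adjacent higher gene was found for 19.4% of them, and of the 4 listed outputs only NIT2 had one.

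**Figure D2:**
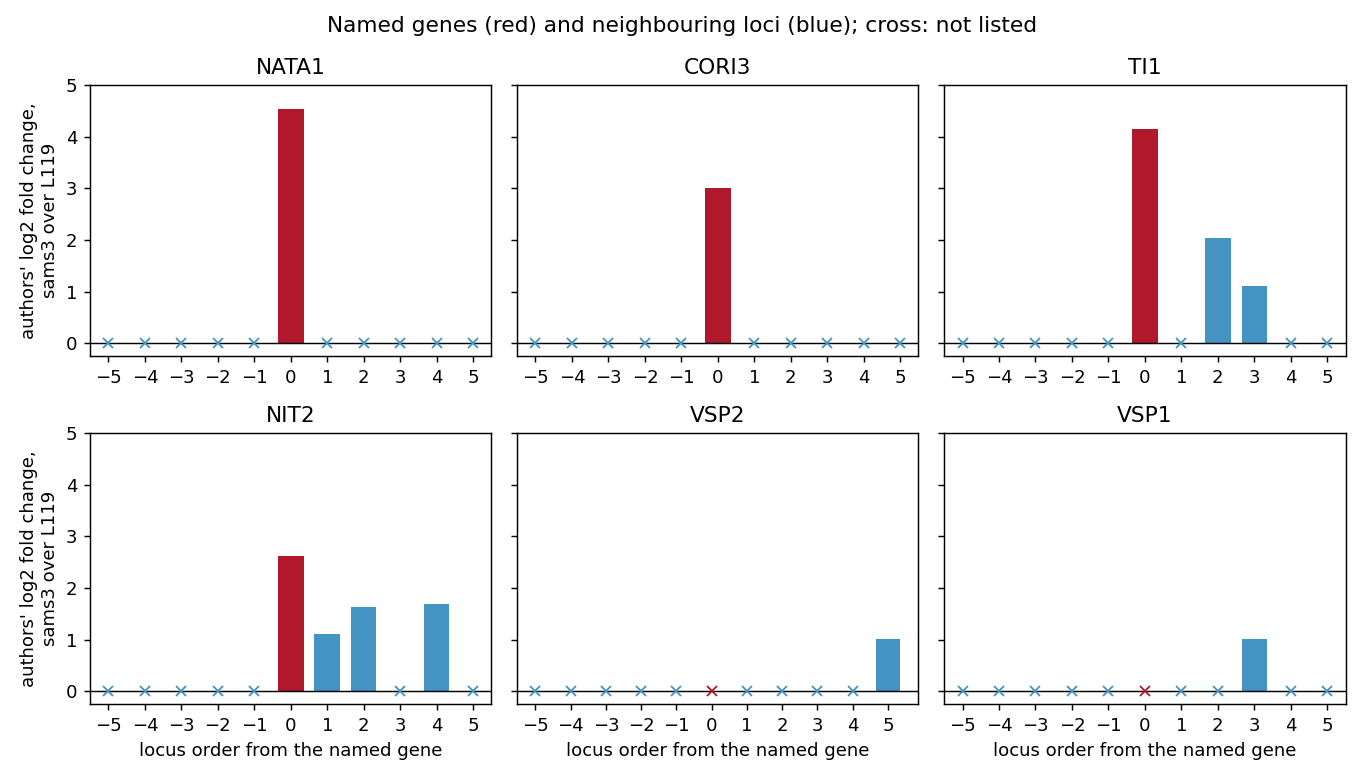
Log2 fold change, sams3 over L119, in the authors' deposited table (vertical axis) for each of the 6 genes (red, position 0) and the 5 loci on each side (blue), in the locus order of the reference (horizontal axis), with a cross where a locus was not listed. NIT2 has listed neighbours NIT1 (1.11), NIT3 (1.64) and AT3G44326 (1.68), TI1 has AT2G43530 (2.03) and AT2G43535 (1.12), and NATA1 and CORI3 have none.

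Protein domains named in the deposited descriptions tie the listed outputs to further listed genes. The knottin domain of TI1 was named for 9 listed genes, all higher. They include the defensin genes PDF1.3 at 6.28, PDF1.4 at 3.59 and PDF1.2c at 2.69 in the authors' deposited table, so TI1 ranked second among these 9. CORI3 shares its aminotransferase domain of class I and II with ACS7 and ACS5, enzymes that make the ethylene precursor from S-adenosylmethionine. ACS7 was at 2.91 and ACS5 at 1.27 in the authors' deposited table, so all 3 listed genes with this domain were higher.

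The nitrilase domain was named for 3 listed genes, NIT1, NIT2 and NIT3. The acetyltransferase domain of NATA1 was named for 3 listed genes that did not move one way. AT3G22560 was at 2.62 and AT5G67430 at -1.78 in the authors' deposited table, beside the 4.53 of NATA1. These domains were looked up after the values had been seen, and 66.9% of all listed genes were higher, so nothing particular to a domain is read from its count.

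Other known outputs of wounding or jasmonate, not all of them of both, were listed in part. Of 18 such genes, 5 were higher, 0 lower and 13 not listed. These 5 are 27.8% of the list, beside 3.11% of all protein-coding genes. The list was written with results for jasmonate genes of these data known, so its count is a description. The median log2 of its 5 higher genes was 2.38.

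RNS1, a ribonuclease induced by wounding and phosphate starvation, had the largest rise of these, at 3.74 (13.4-fold, p = 6.37e-62) in the authors' deposited table. KTI1, a Kunitz trypsin inhibitor of another family than TI1, was at 2.47 (5.56-fold, p = 1.75e-294) in the authors' deposited table. TPS04 makes geranyllinalool and CYP82G1 turns it into a volatile homoterpene that damaged leaves give off. Both steps were higher in the authors' deposited table, TPS04 at 2.38 (p = 1.83e-18) and CYP82G1 at 2.03 (p = 2.83e-09). MBP1, a myrosinase-binding protein, was at 1.26 (2.39-fold, p = 2.41e-50) in the authors' deposited table.

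Those not listed include classic markers beside the VSP genes. They are CLH1, which is induced by coronatine, JR1, the arginase genes ARGAH1 and ARGAH2, the tyrosine aminotransferase gene TAT3, the thionin gene THI2.1, the terpene synthase genes TPS03 and TPS10, the methyltransferase gene BSMT1, HPL1, MBP2, BGLU18 and WR3. Rises of 23.2-fold in NATA1 and 17.6-fold in TI1 thus stood beside 13 of 18 other outputs with no listed value.

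Genes that make, sense and remove jasmonate were listed in part, and their counts are given beside the 3.11% higher and 1.57% lower among all protein-coding genes. Of 17 synthesis genes, 8 were higher, 0 lower and 9 not listed, with a median log2 of 1.93. With adjacent loci counted once, 6 synthesis genes were higher. The largest rises in the authors' deposited table were 2.58 for AOC1 and 2.02 for AOC2, which are neighbouring allene oxide cyclase genes, 2.18 for the reductase gene OPR3 and 1.96 for the lipoxygenase gene LOX4. AOC3 was at 1.37 in the authors' deposited table. The AOC sequences were not compared, and how reads that match several AOC genes were handled is not stated, so their single values are uncertain. AOS and JAR1, which makes the active conjugate, were not listed.

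Of 26 signalling genes, 9 were higher, 1 was lower and 16 were not listed, with a median log2 of 1.94 for the higher genes. In the authors' deposited table AT3G22275, a gene of unknown function in its description, was at 3.71 (p = 8.22e-24), and the repressor genes JAZ10, JAZ8 and JAZ7 were at 3.48, 2.35 and 2.00. MYC4, which was named after its value was seen, fell by 1.03 on the log2 scale in the authors' deposited table (p = 5.33e-35). Its relatives MYC2 and MYC3 and the receptor gene COI1 were not listed. Also higher in the authors' deposited table were JAZ5 at 1.94, TIFY10B at 1.29 and JAZ1 at 1.17. JAZ3, JAZ4, JAZ6, JAZ11, JAZ12 and TIFY7 were not listed, so the rise did not reach the lists for every JAZ gene.

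Of 11 turnover genes, 8 were higher, 0 lower and 3 not listed, with a median log2 of 1.79. CYP94C1, which oxidises the active conjugate, was at 3.07 (8.42-fold) in the authors' deposited table, close to the value of CORI3. CYP94B1, of the same enzyme family, was at 1.82, and AT5G05600 and AT2G38240, oxygenases in their descriptions, were at 2.60 and 2.22 in the authors' deposited table. Of the 9 genes of the jasmonate and ethylene branch, 6 were higher, 0 lower and 3 not listed, with a median log2 of 2.34. Those not listed were ORA59, LCR67 and HCHIB. In the authors' deposited table PDF1.3 was at 6.28, PR4 at 2.80, PDF1.2c at 2.69 and ERF1 at 1.98. PDF1.2, PDF1.2b, PDF1.2c and PDF1.3 are known as similar copies, and no sequence comparison was run here, so their single values are uncertain.

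**Figure D3:**
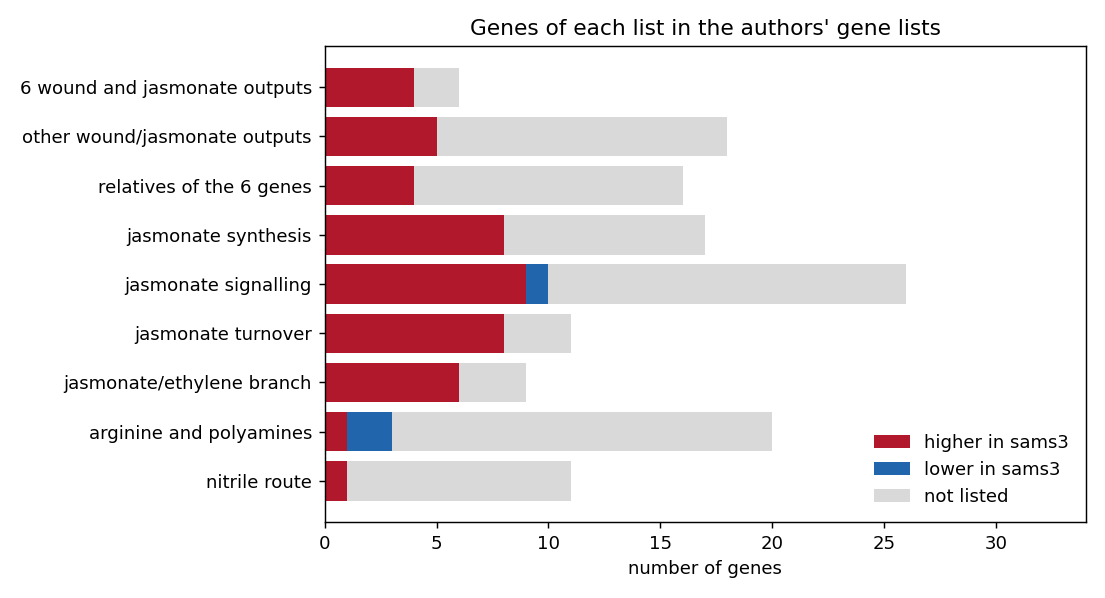
Number of genes (horizontal axis) higher in sams3 (red), lower in sams3 (blue) and not listed (grey) in the authors' deposited table, for the 6 outputs and 8 lists of related genes. Higher genes number 4 of the 6 outputs, 5 of 18 other outputs and 8 of 17 synthesis genes, and the lower genes are in the signalling and the arginine and polyamine lists.

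Counts for the metabolic surroundings of NATA1 and NIT2 stand beside 3.11% higher and 1.57% lower among all protein-coding genes, and the difference was not tested. NATA1 draws on ornithine, which also feeds polyamine and proline synthesis. Of 20 genes of arginine, polyamine and proline metabolism, 1 was higher, 2 were lower and 17 were not listed. The polyamine oxidase gene PAO1 was at 1.45 (p = 1.45e-21) in the authors' deposited table. P5CS1, an enzyme of proline synthesis, was at -1.15 (p = 2.84e-77), and BUD2, an S-adenosylmethionine decarboxylase that supplies polyamine synthesis, at -1.03 (p = 1.86e-06) in the authors' deposited table.

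The p-value of BUD2 lies above 1.31e-06, the Bonferroni threshold over all reference loci. The arginine decarboxylase genes ADC1 and ADC2 and the arginase genes were not listed. Of 11 genes that make or release nitriles and related indole compounds, 1 was higher, 0 lower and 10 not listed. CYP83B1, of indole glucosinolate synthesis, was at 1.02 (2.03-fold, p = 1.60e-67) in the authors' deposited table. The enzymes that make indole-3-acetaldoxime, CYP79B2 and CYP79B3, and the specifier proteins ESP, NSP1 and NSP5, which direct glucosinolate breakdown to nitriles, were not listed.

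**Figure D4:**
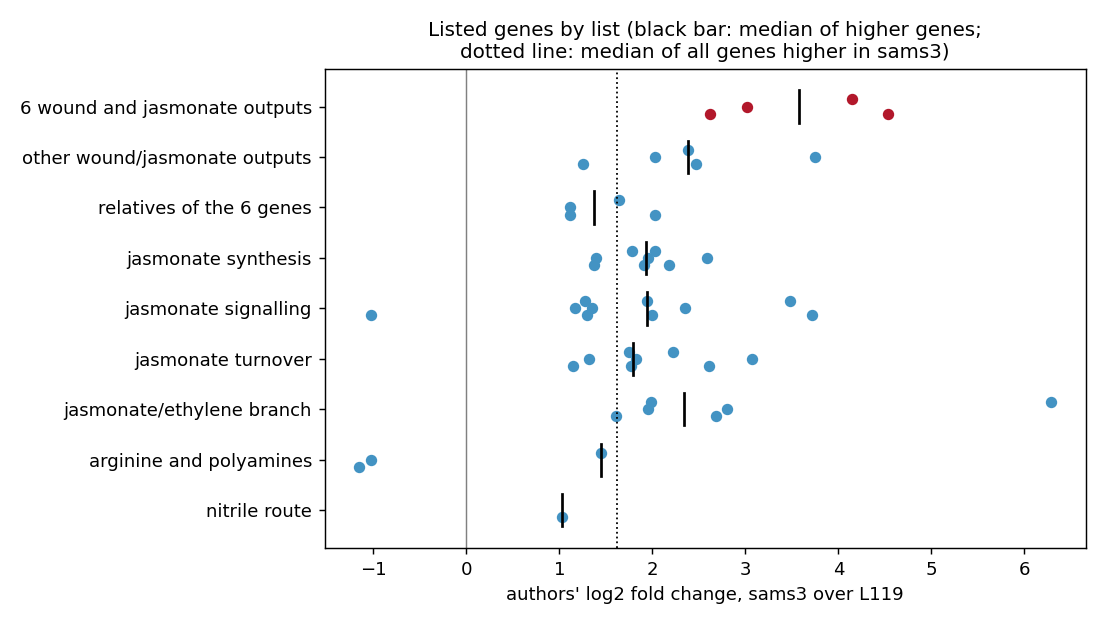
Log2 fold change, sams3 over L119, in the authors' deposited table (horizontal axis) of every listed gene of the 6 outputs (red) and of 8 lists of related genes (blue), with a black bar at the median of each list's higher genes and a dotted line at 1.62, the median of all higher genes. The 4 listed outputs lie between 2.62 and 4.53, and among the related genes only PDF1.3, at 6.28, lies above NATA1.

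Over the 8 lists together, 42 of 128 genes were higher, 3 lower and 83 not listed. Among all protein-coding genes, 3.11% were higher and 1.57% lower. The lists were chosen with earlier results of these data known, so these counts are a description. Of the 128 related genes, PDF1.3 had a larger log2 fold change than NATA1 and TI1 in the authors' deposited table. RNS1, AT3G22275, JAZ10 and CYP94C1 lay between TI1 and CORI3, and PR4 and PDF1.2c between CORI3 and NIT2.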

How the data were processed

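Total RNA of seedlings was sequenced in 2 libraries of sams3 and 2 of L119. The log2 fold changes and p-values used are the authors' deposited values, in 2 lists whose thresholds, per the file headers, were a 2-fold change and a p-value of 0.0001. No source used here says whether p was adjusted. Tools named in the submitters' processing notes, without roles, are edgeR, Bowtie2 and Bismark, and the genome build is TAIR10. The list headed as higher transposable elements repeats the list of higher genes, and it and the other list of elements were not used.

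The 6 genes and the 8 lists were chosen with earlier results of these data known. Named were the 6 genes, listed genes of the lists of other outputs and relatives, and up to 4 listed genes with the largest absolute log2 of each other list; further names were chosen after their values were seen. Domains and neighbour counts were also chosen then. Symbols and locus order came from the RefSeq table of TAIR10.1 (1335 of 1336 identifiers matched), whose build name differs, so no coordinates are given. Counts and ranks were tested on simulated lists. No set test was run. Stricter thresholds and adjacent loci counted once were tried. Planned searches of promoters and protein alignments were not run. Python 3.11.15, pandas 2.3.3, numpy 2.4.6 and matplotlib 3.10.9 were used.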

Additional observations from a re-analysis of the deposited data

How the results depend on the processing

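The count of 4 higher outputs was the same with an absolute log2 of at least 2, with a Bonferroni threshold, with p listed as 0 and with adjacent loci counted once, and was 3 with an absolute log2 of at least 3, where NIT2 drops out. In all, 31 of 40 alternatives stayed within 1.5 times the reported count or rank. With an absolute log2 of at least 2, which by construction keeps fewer genes, higher genes numbered 1 for the relatives, 3 each for synthesis, turnover and the jasmonate and ethylene branch, 4 for signalling, and 0 for the arginine and polyamine and nitrile lists, and lower genes over all lists numbered 0. With adjacent loci counted once, 2 relatives, 6 synthesis genes and 4 genes of the jasmonate and ethylene branch were higher. No paired analysis was possible because the files hold no per-library values, and for that reason leaving out each replicate, filters on low values and other tools were not run. The promoter and protein alternatives were not run. The depth is unknown.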

Other observations

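The deposited descriptions mention wounding for 15 higher genes and 1 lower gene, and jasmonate for 22 higher genes and 1 lower gene, against 66.9% higher among all listed genes. These words were searched after values had been seen. The description of 0 of the 4 listed outputs holds either word, and that of CORI3 gives only a number of processes. Outside the lists above, wounding was mentioned for 9 genes, of which 8 were higher. Among these in the authors' deposited table were the diacylglycerol kinase gene DGK2 at 1.80 (p = 6.74e-168) and the peptide receptor genes PEPR2 at 1.25 and PEPR1 at 1.24. The lower one was AT5G01740, at -1.46 in the authors' deposited table, whose description names a wound-induced protein domain. Jasmonate was mentioned for 8 genes outside the lists, of which 7 were higher, among them the glutaredoxin gene GRX480 at 2.31 and PROPEP4, a precursor of defence peptides, at 1.35 in the authors' deposited table. The lower one was DEAR2, at -1.04 in the authors' deposited table.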
